A study of Mus musculus with 9 samples.

Results

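The endoplasmic reticulum (ER) translocation and N-glycosylation machinery comprised 33 named genes here, chosen by name as subunits of the signal recognition particle and its receptor, the Sec61 channel, TRAP (the translocon-associated protein complex), signal peptidase and the oligosaccharyltransferase. All 33 were among the 52636 genes of the deposited table. Their counts were summed per sample and cell label in single-cell RNA-seq data from thyroids of adult male C57BL/6 mice, 10 to 14 weeks old in the protocol and 10 to 12 in the design text, in a study of Notch signalling in thyroid homeostasis. Every mouse received 1 intraperitoneal dose of antibody, and the labels give 7 days. RW mice, the control, received an isotype antibody against ragweed (40 mg/kg). aJ1aJ2 mice received anti-Jag1 and anti-Jag2 (20 mg/kg each), which block ligands of Notch. aN1aN2 mice received anti-Notch1 (5 mg/kg) and anti-Notch2 (10 mg/kg), which block the receptors. Each group had 3 samples, each sample was a pool of thyroids from 6 mice digested together, and the antibodies reached the whole animal. The samples are called RW 1, 2 and 3, aJ1aJ2 1, 3 and 4, and aN1aN2 1, 2 and 3, where RW 3 and aJ1aJ2 1 carry no number in their titles.

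A protein destined for secretion is recognised by its signal peptide while it is still being translated, handed by the signal recognition particle to its receptor on the ER membrane, and threaded through the Sec61 channel. TRAP sits beside the channel, signal peptidase cuts the signal peptide off, and the oligosaccharyltransferase adds a preassembled glycan to asparagines of the entering chain. Thyrocytes use this route for thyroglobulin (Tg), the large glycoprotein on which thyroid hormone is made, as well as for thyroid peroxidase and the receptor for thyrotropin.

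The thyrocyte class was the authors' label Th1, which held 1169 of 10186 cells, 62 to 193 per sample. Its 10 thyrocyte markers summed to 85574 to 123059 CPM (UMI counts scaled to a common library total, where a UMI, or unique molecular identifier, marks a counted molecule), and Tg alone took 8.29 to 11.3% of its UMIs. Th1 sums ranged from 872716 to 5233988 UMIs per sample, out of library totals of 3013324 to 11880793. Median UMIs per Th1 cell were 12535 to 22558 in RW, 9968 to 15314 in aJ1aJ2 and 5737 to 7558 in aN1aN2. Internal numbers in the titles fall into 3 ranges, called series A (RW 3 and aJ1aJ2 1), B (RW 1, RW 2, aJ1aJ2 3 and aJ1aJ2 4) and C (the aN1aN2 samples alone), so receptor blockade and series C coincide in every sample and cannot be told apart. Libraries shared at most 2 cell barcodes. Libraries were 3′ end counted, so levels of different genes were not ranked against each other. Sec61b, Sec61g, Srp54a, Srprb and Ost4 have near-identical copies at their 3′ ends (at least 97% identity over at least 90 of the last 400 bases), so their counts are uncertain. Likewise, exons of Sec11a overlap Nmb on the same strand and those of Srprb overlap Gm20425.

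In RW thyroids the machinery took its largest share of UMIs in thyrocytes. Summed over the 33 genes it made up a mean of 104.5 of every 10000 UMIs in Th1 (97.8 to 112.3 over 3 samples), 87.1 in the other large thyroid label, Th3, and 59.0 in the fibroblast label F (55.1 to 62.8). The endothelial label EC1 stood at 45.3 (43.1 to 47.5), macrophages (M) at 37.7 and erythroid cells (Eryth2) at 1.99. The ranges of the labels S (47.2 to 54.3), T1 (43.5 to 51.7) and EC1 overlapped, so their order is not separated from the spread between samples, while F lay above all of them. On CPM of the total of each label, Th1 had the highest mean of 12 labels for 20 of 33 genes. Leaving aside Th3, whose Tg was 68.8 to 102.2% of the Th1 level, the Th1 range lay wholly above that of the highest other label for 15 genes, overlapped it for 15 and lay below it for 3. Sec11c, a catalytic subunit of signal peptidase, was at 956 CPM in Th1 and 262 CPM in T1, the next label. Sec61b, a small subunit of the channel, was at 1384 CPM in Th1 and 487 CPM in T1. Dad1, a small transferase subunit that takes its name from defence against cell death, was at 775 CPM in Th1 and 350.4 CPM in T1. The genes below were Ssr3 (244 CPM in Th1, 287 CPM in F), Spcs1 (246 CPM in Th1, 313 CPM in S) and Srp14 (287 CPM in Th1, 414 CPM in S).

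**Figure D1:**
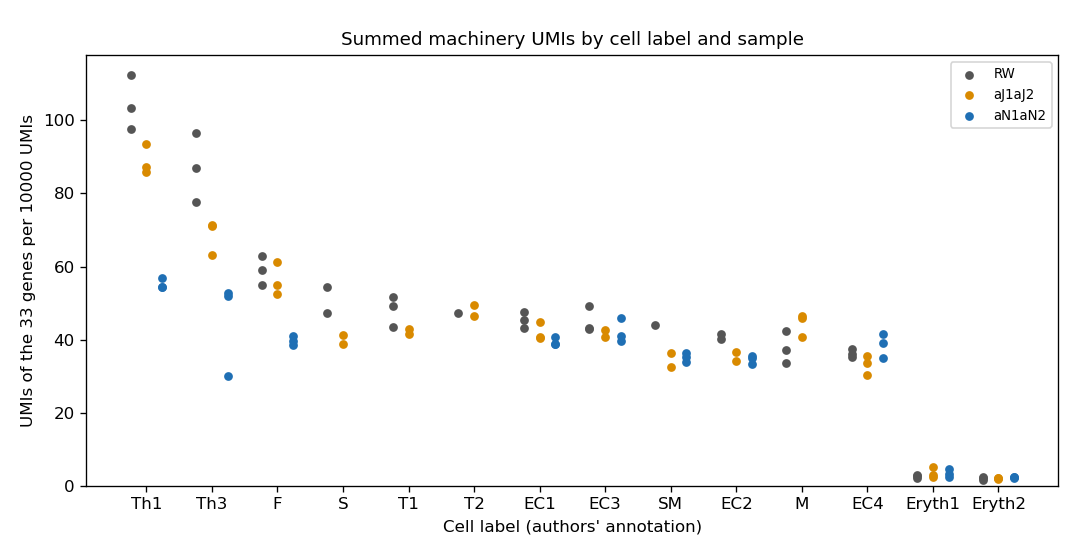
UMIs of the 33 genes per 10000 UMIs (vertical axis) in each cell label of the authors' annotation (horizontal axis), 1 point per sample with at least 20 cells of that label, coloured by group. Th1 RW samples lie between 97.8 and 112.3, all above the aN1aN2 samples, which lie between 54.3 and 56.8.

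Under receptor blockade most of the machinery fell in thyrocytes. In Th1, 24 of the 33 genes were lower in aN1aN2 than in RW at an adjusted p under 0.05 and 0 were higher, in a comparison where 34.4% of all 10627 genes tested were called (17.3% lower and 17.1% higher). All adjusted p-values are Benjamini-Hochberg values of edgeR's quasi-likelihood test over all genes tested, and changes are log2 fold changes with their standard errors (SE) over 3 samples against 3. The median change of the 33 was -0.72, against 0.02 over all genes. The groups did not overlap, with aN1aN2 lower, for 27 of 33 genes and for 23.7% of all genes. Tg itself was higher in every aN1aN2 sample (96129.6 to 117873.5 CPM) than in every RW sample (88748.3 to 95134.7 CPM), but was not called (log2 change 0.19, SE 0.13, edgeR adjusted p = 0.305).

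The share of all UMIs that the 33 genes made up in Th1 was 97.8, 103.5 and 112.3 per 10000 in RW 1, 2 and 3. It was 93.6, 86.0 and 87.4 per 10000 in aJ1aJ2 1, 3 and 4, and 54.3, 54.3 and 56.8 per 10000 in aN1aN2 1, 2 and 3. The 3 groups did not overlap. Group means were 104.5 ± 7.34 in RW, 89.0 ± 4.05 in aJ1aJ2 and 55.1 ± 1.44 in aN1aN2 (SD, n = 3), so the aN1aN2 mean was 0.527 of the RW mean. By complex, the ratio of the aN1aN2 to the RW mean was 0.716 for the signal recognition particle, 0.641 for the channel, 0.490 for TRAP, 0.448 for signal peptidase and 0.459 for the oligosaccharyltransferase. In every one of these 5 complexes all aN1aN2 samples were below all RW samples.

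**Figure D2:**
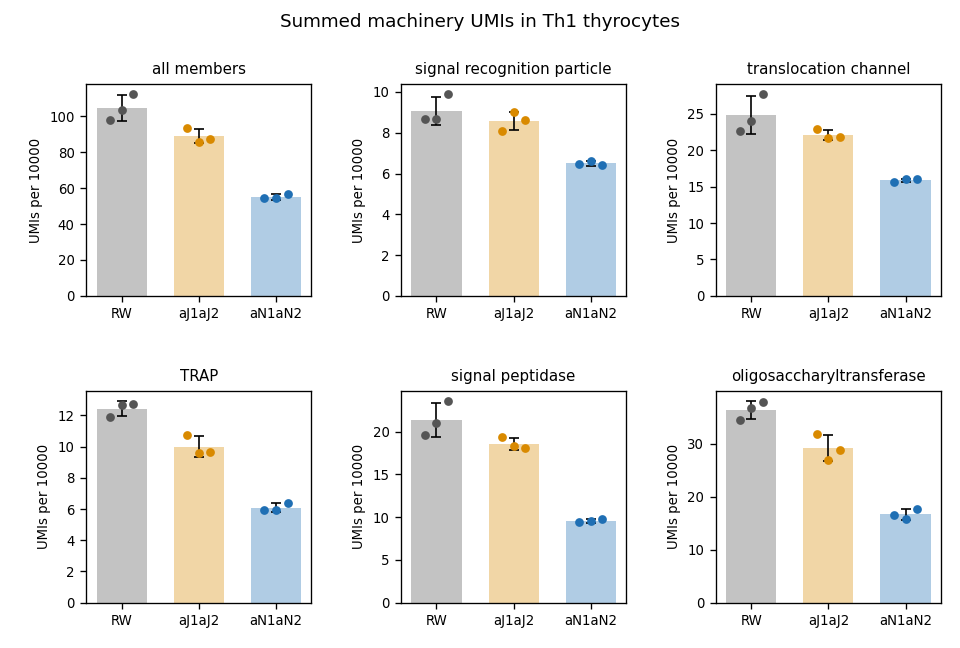
Summed UMIs per 10000 Th1 UMIs for all 33 genes and for 5 complexes (1 panel each, vertical axis from 0); bars are group means, whiskers 1 SD, points the 3 samples of each group. For all members the RW samples lie between 97.8 and 112.3 and the aN1aN2 samples between 54.3 and 56.8, with aJ1aJ2 between them.

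Of the 6 signal recognition particle genes, 3 fell: Srp9, Srp14 and Srp19, with a median of -0.41 over the 6. Srp9 was not called among Th1 cells of 5000 to 15000 UMIs (log2 change -0.29, edgeR adjusted p = 0.187). Srp14, which with Srp9 forms the domain that slows translation, stood at 270.5, 283 and 318 CPM in RW 1, 2 and 3, 258, 269 and 278 CPM in aJ1aJ2 1, 3 and 4, and 180.0, 186 and 213 CPM in aN1aN2 1, 2 and 3. All aN1aN2 samples were below all others (log2 change -0.60, SE 0.11, edgeR adjusted p = 0.000486). Srp19, which helps assemble the particle on its RNA, stood at 130.0, 119 and 148 CPM in RW, 114, 126 and 111 CPM in aJ1aJ2 and 74.1, 80.6 and 77.4 CPM in aN1aN2, in the same sample order. It too was lowest in every aN1aN2 sample (log2 change -0.78, SE 0.12, edgeR adjusted p = 0.00015). Srp54a, which binds the signal peptide, and Srp68 and Srp72, which bind the RNA as a pair, were not called, with log2 changes of -0.27, 0.11 and -0.17. The receptor subunit Srprb, which anchors the receptor in the membrane, was at 44.4, 45.9 and 59.3 CPM in RW, 61.3, 42.4 and 38.5 CPM in aJ1aJ2 and 38.4, 43.0 and 36.3 CPM in aN1aN2. Every aN1aN2 value lay below the RW values, but the change was not called (log2 change -0.35, SE 0.19, edgeR adjusted p = 0.161).

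**Figure D3:**
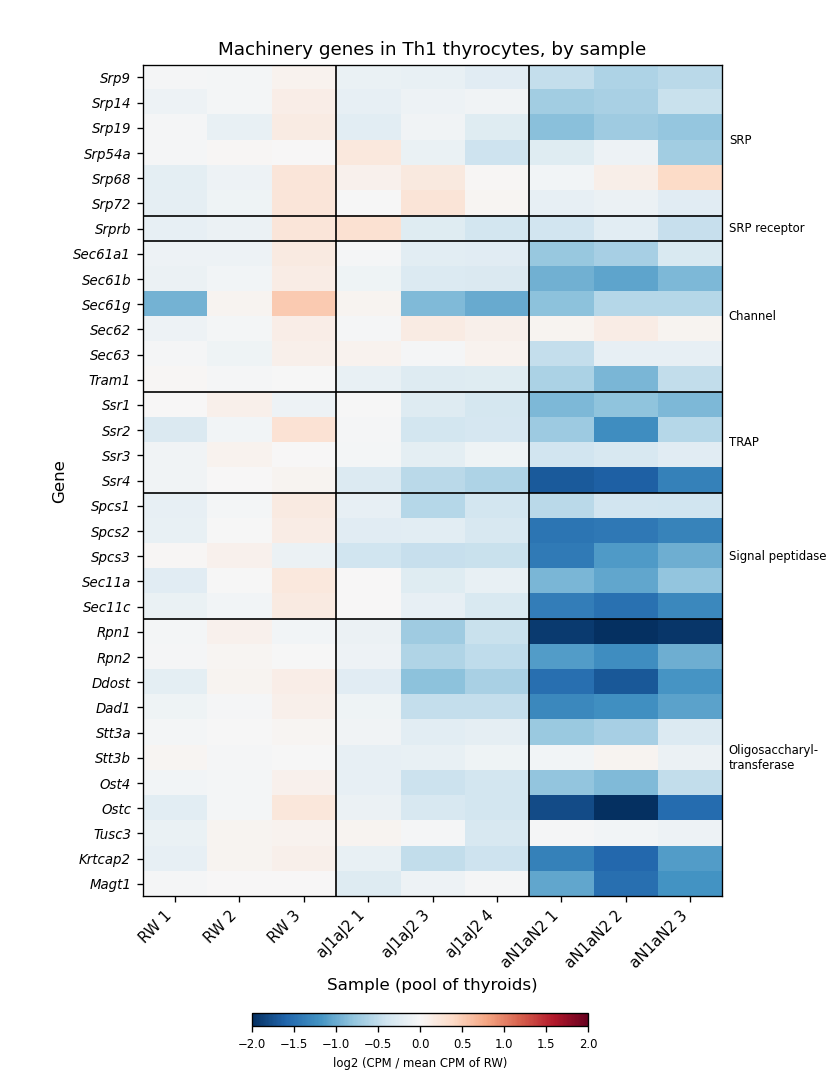
Each of the 33 genes (rows, grouped by complex) in each of the 9 samples (columns) in Th1, as log2 of CPM over the RW mean; blue is lower and red higher. The aN1aN2 columns are blue for most rows of TRAP, signal peptidase and the oligosaccharyltransferase, while Sec62, Stt3b and Tusc3 stay pale in all 9 samples.

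Among the 6 genes of the translocation channel and its partners, 3 fell (Sec61a1, the pore itself, Sec61b and Tram1) and the median was -0.62. Sec61b was at 1295, 1345 and 1556 CPM in RW 1, 2 and 3, 1315, 1156 and 1150.2 CPM in aJ1aJ2 1, 3 and 4, and 717, 676 and 751 CPM in aN1aN2 1, 2 and 3. The aN1aN2 samples formed a group of their own, 1.96-fold lower than RW (log2 change -0.97, SE 0.10, edgeR adjusted p = 4.86e-06). Tram1, a membrane protein that contacts the entering chain, was at 262, 255 and 257 CPM in RW, 232, 215 and 217 CPM in aJ1aJ2 and 167, 138 and 183 CPM in aN1aN2. All 3 groups were apart, and the fall from RW to aN1aN2 was called (log2 change -0.68, SE 0.11, edgeR adjusted p = 0.000251). Sec62 and Sec63 serve chains that enter after translation, and Sec63 also brings the chaperone BiP to the channel. Sec62 was at 355, 372 and 420.0 CPM in RW, 374, 428 and 408 CPM in aJ1aJ2 and 396, 425 and 399 CPM in aN1aN2. Its samples overlapped throughout (log2 change 0.09, SE 0.10, edgeR adjusted p = 0.54). Sec63 was at 117, 112 and 128 CPM in RW, 125, 117 and 125 CPM in aJ1aJ2 and 85.1, 106 and 106 CPM in aN1aN2. Its aN1aN2 values lay below all others without a call (log2 change -0.28, SE 0.12, edgeR adjusted p = 0.0827), although the change was called among Th1 cells of 5000 to 15000 UMIs (log2 change -0.74, edgeR adjusted p = 0.0108). Sec61g ranged from 112 to 321 CPM over the 9 samples, with RW 1 low and RW 3 high, and its log2 change of -0.66 (SE 0.31) was not called.

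All 4 TRAP genes fell, with a median of -0.85, although the call for 1 of them, Ssr3, depended on single libraries. Ssr4, the delta subunit, was at 641, 677 and 697 CPM in RW 1, 2 and 3, 555, 460.3 and 436 CPM in aJ1aJ2 1, 3 and 4, and 210.2, 216 and 264 CPM in aN1aN2 1, 2 and 3. The groups were wholly apart, in the order RW, aJ1aJ2, aN1aN2, and aN1aN2 was 2.94-fold lower than RW (log2 change -1.56, SE 0.12, edgeR adjusted p = 2.08e-07). Ssr1, the alpha subunit, was at 193, 205 and 179 CPM in RW, 191, 160.1 and 151 CPM in aJ1aJ2 and 103, 109.7 and 103 CPM in aN1aN2. RW and aJ1aJ2 overlapped, and the aN1aN2 samples were below both (log2 change -0.86, SE 0.12, edgeR adjusted p = 4.84e-05). Ssr2, the beta subunit, was at 120.5, 142 and 179 CPM in RW, 145, 114 and 116 CPM in aJ1aJ2 and 88.9, 62.4 and 99.1 CPM in aN1aN2. Its replicates were more scattered, yet aN1aN2 still lay below the others (log2 change -0.85, SE 0.18, edgeR adjusted p = 0.00188). Ssr3, the gamma subunit, had the smallest fall (log2 change -0.31, SE 0.10, edgeR adjusted p = 0.0263). Its call was lost without RW 2, RW 3, aN1aN2 1 or aN1aN2 2 (log2 change -0.27 to -0.30, edgeR adjusted p of 0.0586 to 0.116) and with 62 cells per sample (edgeR adjusted p = 0.111). Among Th1 cells of 5000 to 15000 UMIs its log2 change was 0.02 (edgeR adjusted p = 0.961).

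Signal peptidase fell in all 5 subunits, with a median of -1.18. Sec11a and Sec11c are its alternative catalytic subunits. Sec11c was at 877, 928 and 1095 CPM in RW 1, 2 and 3, 975, 864 and 778 CPM in aJ1aJ2 1, 3 and 4, and 369.8, 342 and 397 CPM in aN1aN2 1, 2 and 3. RW and aJ1aJ2 overlapped, while aN1aN2 was 2.62-fold below RW (log2 change -1.39, SE 0.12, edgeR adjusted p = 5.07e-07). Sec11a was at 272, 317 and 367 CPM in RW, 321, 269 and 287 CPM in aJ1aJ2 and 169.6, 155 and 184 CPM in aN1aN2. Its aN1aN2 samples were the lowest, with a smaller change than that of Sec11c (log2 change -0.92, SE 0.13, edgeR adjusted p = 5.25e-05). As a share of the UMIs of both, Sec11c took 75.3% ± 0.933 in RW and 68.6% ± 0.286 in aN1aN2 (SD, n = 3). In other labels the RW and aN1aN2 shares were 37.0% ± 5.19 and 40.4% ± 6.47 in EC1, 28.9% ± 7.86 and 37.7% ± 5.61 in EC4, and 24.8% ± 3.89 and 18.3% ± 5.73 in F. The samples overlapped in each of these labels, and RW 2 held 1 Sec11c and 4 Sec11a UMIs in EC4.

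Among the accessory subunits, Spcs2 was at 406, 451 and 499.6 CPM in RW, 387, 391 and 363 CPM in aJ1aJ2 and 164, 168 and 179 CPM in aN1aN2. The 3 groups were apart and the aN1aN2 level was 2.67-fold below RW (log2 change -1.42, SE 0.11, edgeR adjusted p = 1.65e-07). Spcs3, needed for cleavage, was at 177, 185 and 161 CPM in RW, 132, 126 and 128 CPM in aJ1aJ2 and 65.3, 79.4 and 88.2 CPM in aN1aN2. Here too no groups overlapped (log2 change -1.18, SE 0.12, edgeR adjusted p = 3.69e-06). Spcs1, a small accessory subunit, was at 222, 242 and 283 CPM in RW, 223, 168 and 194 CPM in aJ1aJ2 and 172, 191 and 189 CPM in aN1aN2. Its aN1aN2 samples lay below RW and among the aJ1aJ2 samples (log2 change -0.44, SE 0.13, edgeR adjusted p = 0.0137). The Spcs1 call was lost without RW 3 (log2 change -0.33, edgeR adjusted p = 0.0729), without aN1aN2 1 (-0.39, edgeR adjusted p = 0.0751) and among Th1 cells of 5000 to 15000 UMIs (-0.26, edgeR adjusted p = 0.338).

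The oligosaccharyltransferase had the largest falls and also genes with no detected change: 9 of 11 subunits fell, with a median of -1.20. Rpn1 (ribophorin I, chromosome 6, 88084482 to 88105304 on the plus strand of GRCm38), a shared subunit that lies near the ribosome, was at 384, 421 and 383 CPM in RW 1, 2 and 3, 366, 242 and 291 CPM in aJ1aJ2 1, 3 and 4, and 105, 90.3 and 103 CPM in aN1aN2 1, 2 and 3. It was the most reduced of the 33, 3.98-fold below RW with no overlap between groups (log2 change -1.99, SE 0.14, edgeR adjusted p = 1.12e-07). Rpn2 (ribophorin II) was at 338, 354 and 343 CPM in RW, 320.5, 227 and 242 CPM in aJ1aJ2 and 159.7, 146 and 175 CPM in aN1aN2. Its groups were also apart (log2 change -1.11, SE 0.13, edgeR adjusted p = 1.2e-05). Ddost, the membrane-anchored OST48 subunit, was at 298, 354 and 373 CPM in RW, 294, 195 and 219 CPM in aJ1aJ2 and 121, 105 and 151 CPM in aN1aN2. The order of the groups was the same, with a 2.76-fold difference between RW and aN1aN2 (log2 change -1.46, SE 0.16, edgeR adjusted p = 7.69e-06).

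Small shared subunits moved likewise. Dad1 was at 736, 774 and 842 CPM in RW, 737, 566 and 561 CPM in aJ1aJ2 and 322, 334 and 374 CPM in aN1aN2. Every aN1aN2 sample was below every other, and aJ1aJ2 1 reached the RW range (log2 change -1.20, SE 0.12, edgeR adjusted p = 2.72e-06). Ost4, a very short membrane subunit, was at 502, 508 and 555 CPM in RW, 466, 386 and 406 CPM in aJ1aJ2 and 302, 284 and 371 CPM in aN1aN2. All 3 groups were apart (log2 change -0.72, SE 0.12, edgeR adjusted p = 0.000246).

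The transferase exists in versions built on either of a pair of catalytic subunits. Stt3a forms the version that works on chains as they enter, held to the channel by Ostc and Krtcap2, while Stt3b forms the version that acts on sites the first has missed and carries Magt1 or Tusc3, a pair of alternative oxidoreductase subunits. Stt3a was at 137, 140.4 and 145 CPM in RW, 134, 122 and 124 CPM in aJ1aJ2 and 84.5, 88.5 and 116 CPM in aN1aN2. It fell in aN1aN2, with no overlap (log2 change -0.58, SE 0.12, edgeR adjusted p = 0.00215). Stt3b (chromosome 9, 115242581 to 115310421, minus strand) was at 133, 127 and 128 CPM in RW, 115, 117 and 121 CPM in aJ1aJ2 and 125, 135 and 119.7 CPM in aN1aN2. The aN1aN2 and RW samples overlapped, and no change was detected (log2 change -0.03, SE 0.10, edgeR adjusted p = 0.847).

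Ostc (chromosome 3, 130695912 to 130709444, minus strand) was at 228, 256 and 309 CPM in RW, 245, 212 and 205 CPM in aJ1aJ2 and 76.3, 61.8 and 90.7 CPM in aN1aN2. The aN1aN2 samples stood 3.54-fold below RW and far from both other groups (log2 change -1.82, SE 0.15, edgeR adjusted p = 4.25e-07). Krtcap2 was at 368, 431 and 443 CPM in RW, 374, 293 and 312 CPM in aJ1aJ2 and 162, 140.0 and 189.8 CPM in aN1aN2. RW and aJ1aJ2 overlapped, with aN1aN2 below both (log2 change -1.35, SE 0.13, edgeR adjusted p = 2.07e-06).

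Of the partners of Stt3b, Magt1 was at 256, 264 and 264 CPM in RW, 219, 244 and 257 CPM in aJ1aJ2 and 127, 92.1 and 114 CPM in aN1aN2. It fell without overlap (log2 change -1.23, SE 0.12, edgeR adjusted p = 2.26e-06). Tusc3 was at 67.2, 76.9 and 77.4 CPM in RW, 76.4, 72.4 and 58.9 CPM in aJ1aJ2 and 72.4, 71.5 and 68.9 CPM in aN1aN2. Its samples overlapped across all groups (log2 change -0.05, SE 0.13, edgeR adjusted p = 0.808).

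**Figure D4:**
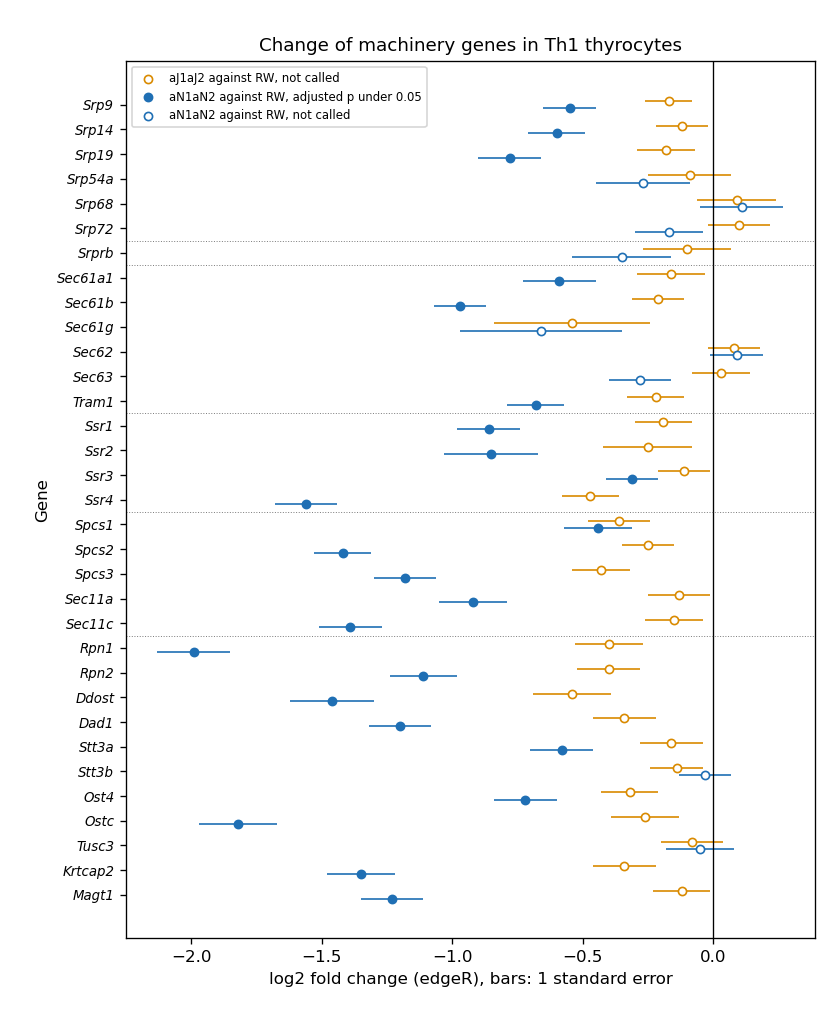
Log2 fold change from RW of each of the 33 genes in Th1 (horizontal axis; bars are 1 SE of the edgeR fit), for aN1aN2 (blue) and aJ1aJ2 (orange); filled points passed an adjusted p of 0.05. Of the aN1aN2 points 24 are filled and lie below 0, while Stt3b (-0.03), Tusc3 (-0.05) and Sec62 (0.09) lie near 0, and no aJ1aJ2 point is filled.

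The aN1aN2 thyrocytes were also the shallowest. Among Th1 cells of 5000 to 15000 UMIs, where median UMIs still differed (10556 to 10771 in RW and 7448 to 7918.5 in aN1aN2), 22 of 33 genes were lower, where 22.0% of 6742 genes tested were called. Summed markers of C cells in Th1 were 425 to 1065 CPM in RW and 1009 to 1798 CPM in aN1aN2, and those of parathyroid cells 6.75 to 39.2 and 96.6 to 233 CPM. The parathyroid sum was nearly all Pth (6.07 to 38.0 and 96.0 to 233 CPM). Gcm2 was at 0 and 0 to 0.549 CPM, and Casr at 0.675 to 2.00 and 0 to 0.606 CPM. The C cell sum was mostly Calca (389 to 1037 and 964 to 1735 CPM), which was not called, while Chga was called higher and Ret lower. Endothelial markers summed to 371 to 499 CPM in RW and 81.0 to 384 CPM in aN1aN2. Their part in the result was not tested. Leaving out any 1 library gave 22 to 25 calls.

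Promoters are printed for 4 genes on which the comparisons turn: Rpn1, Ssr4 and Ddost, the most reduced in Th1 of those found in the RefSeq promoter table (GRCm38.p6), and Stt3b, which was not called in Th1 and rose in endothelial labels. Each is the 250 bases before the RefSeq start, 5′ to 3′ on the strand of the gene, with every CCACG or its reverse complement in capitals. CCACG is the conserved end of the ER stress element (CCAAT, then 9 unspecified bases, then CCACG), which the unfolded protein response factors ATF6 and XBP1 are known to use. Positions are chr6:88084223-88084472 (plus) for Rpn1, chrX:73786773-73787022 (plus) for Ssr4, chr4:138304488-138304737 (plus) for Ddost and chr9:115310469-115310718 (minus) for Stt3b.
Rpn1: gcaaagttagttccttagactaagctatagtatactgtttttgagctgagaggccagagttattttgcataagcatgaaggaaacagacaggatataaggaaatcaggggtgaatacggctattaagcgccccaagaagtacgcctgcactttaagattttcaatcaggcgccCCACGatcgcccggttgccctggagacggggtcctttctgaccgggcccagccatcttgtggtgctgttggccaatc
Ssr4: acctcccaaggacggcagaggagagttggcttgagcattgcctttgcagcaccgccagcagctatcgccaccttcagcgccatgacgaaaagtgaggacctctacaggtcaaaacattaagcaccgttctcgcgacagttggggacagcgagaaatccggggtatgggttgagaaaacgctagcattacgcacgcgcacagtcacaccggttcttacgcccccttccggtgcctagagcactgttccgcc
Ddost: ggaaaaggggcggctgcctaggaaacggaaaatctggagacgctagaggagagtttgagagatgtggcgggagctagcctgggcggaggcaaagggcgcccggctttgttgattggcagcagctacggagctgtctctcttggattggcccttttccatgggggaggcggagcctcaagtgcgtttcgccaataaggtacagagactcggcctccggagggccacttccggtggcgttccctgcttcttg
Stt3b: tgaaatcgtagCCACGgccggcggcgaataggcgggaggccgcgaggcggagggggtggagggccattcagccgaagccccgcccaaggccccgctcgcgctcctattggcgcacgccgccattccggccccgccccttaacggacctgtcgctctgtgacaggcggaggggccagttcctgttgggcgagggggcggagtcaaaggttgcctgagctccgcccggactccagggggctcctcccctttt
Searched on both strands, Rpn1 and Stt3b each held 1 CCACG, and Ssr4 and Ddost held 0. The table matched 24 of the 33 genes. CCACG was in 12 of these 24 (50%) and in 31% of 27025 genes, the full element was in 0 of 24 and 0.13% of genes, TGACGTGG in 0 of 24 and 0.603%, and TGACGTCA in 0 of 24 and 1.77%. These are letter matches in a window and say nothing of binding.

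Ligand blockade, set against the same RW samples, lowered no member past the threshold in Th1. With edgeR's quasi-likelihood test 0 of 33 genes were called, where 0.612% of all 10627 genes were, with 10 at an unadjusted p under 0.05. DESeq2 called 1 (Ssr4), where it called 1.26% of all genes. Of the 33 log2 changes 29 were below 0, with a median of -0.18 against 0.01 over all genes, and aJ1aJ2 lay wholly below RW for 11 genes, against 7.6% of all genes. For UMIs summed over the 33 genes all 3 groups were nonetheless apart, and the aJ1aJ2 mean was 0.851 of the RW mean. By complex it was 0.944 of RW for the signal recognition particle, 0.892 for the channel and 0.803 for TRAP. It was 0.870 for signal peptidase and 0.804 for the oligosaccharyltransferase. The RW and aJ1aJ2 samples overlapped for the signal recognition particle and the channel. They were apart for TRAP, signal peptidase and the oligosaccharyltransferase.

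Values for the genes with the lowest adjusted p were Ssr4 (log2 change -0.47, SE 0.11, edgeR adjusted p = 0.0766), Spcs3 (-0.43, edgeR adjusted p = 0.104) and Ddost (-0.54, edgeR adjusted p = 0.132). Rpn1 was at -0.40 (edgeR adjusted p = 0.190). The sample aJ1aJ2 1 lay above aJ1aJ2 3 and 4 for 25 of the 33 genes, Ssr4, Rpn1 and Ddost among them. It differed from aJ1aJ2 3 and 4 in other genes of Th1 too: Tg was at 118144.7 CPM against 82154.5 and 82063.9 CPM, C cell markers summed to 57.0 CPM against 2532 and 389 CPM, and macrophage markers to 233 CPM against 59.6 and 13.4 CPM. Their part in the result was not tested. Without it, where 4.90% of all genes were called, 8 genes were lower: Ssr4 (-0.58, edgeR adjusted p = 0.00569), Ddost (-0.73, edgeR adjusted p = 0.00585), Rpn1 (-0.57, edgeR adjusted p = 0.00717), Rpn2 (-0.56, edgeR adjusted p = 0.00542), Dad1, Spcs1, Spcs3 and Krtcap2. Within series B, RW 1 and 2 against aJ1aJ2 3 and 4, 8 genes were lower as well, where 5.70% of all genes were called: Ost4 (-0.35, edgeR adjusted p = 0.0271) took the place of Spcs1. With series as a term in the fit, Ssr4, Spcs3 and Ddost were called, where 1.19% of all genes were. Series A holds 1 sample of each group and gives no test of its own.

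Set directly against ligand blockade, receptor blockade left 22 of 33 genes lower in Th1 and 0 higher, where 22.3% of all genes were called, 11.5% lower and 10.8% higher. The median was -0.48 against 0.00 over all genes, and the groups did not overlap for 25 genes, against 18.5% of all genes. Of the 11 transferase subunits 9 were lower, with Rpn1 at -1.59 (SE 0.14, edgeR adjusted p = 2.36e-06) and Ostc at -1.56 (SE 0.15, edgeR adjusted p = 5.14e-06). Ssr3 (-0.20, edgeR adjusted p = 0.174) and Spcs1 (-0.08, edgeR adjusted p = 0.722) were not called. Stt3b was at 0.11 (SE 0.10, edgeR adjusted p = 0.506). The count was 16 without aN1aN2 2, the lowest when 1 library was left out, where Srp9, Sec61a1, Tram1, Ssr2, Stt3a and Ost4 were lost (edgeR adjusted p of 0.0692 for Tram1 to 0.175 for Ssr2). Without aN1aN2 1, Sec61a1, Ssr2, Stt3a and Ost4 were lost. The call for Sec61a1 was also lost without each of the 3 aJ1aJ2 samples (edgeR adjusted p of 0.0562 to 0.0801) and with DESeq2, those for Ssr2 and Ost4 without aJ1aJ2 1, and that for Stt3a without aJ1aJ2 4. This comparison uses the same aN1aN2 samples, all of series C, as that with RW.

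Outside Th1, receptor blockade changed 32 gene and label pairs among 8 labels tested, in EC1, EC4, F and Th3, the last of which also holds thyrocyte markers (62467 to 98259 CPM in RW). Several markers of the labels moved with the group. In EC1, endothelial markers summed to 12319 to 13393 CPM in RW and 8928 to 9206 CPM in aN1aN2, parathyroid markers to 38.9 to 71.9 and 180.4 to 286 CPM, C cell markers to 48.4 to 76.25 and 159.9 to 235 CPM, macrophage markers to 72.5 to 188 and 5.34 to 9.49 CPM, and thyrocyte markers to 717 to 993 and 1335 to 1958 CPM. In EC4, endothelial markers summed to 11883 to 12967 CPM in RW and 10098 to 10568 CPM in aN1aN2, C cell markers to 100.5 to 172 and 283 to 530.2 CPM, erythroid markers to 195 to 1028 and 1489 to 2029.6 CPM, and macrophage markers to 24.8 to 100.5 and 0 to 8.28 CPM. Parathyroid markers in EC4 summed to 24.8 to 327 CPM in RW and to 437, 3744 and 116 CPM in aN1aN2 1, 2 and 3, so aN1aN2 2 stood apart. In F, fibroblast markers overlapped between the groups (31985 to 39468 and 31525 to 36708 CPM). Tg in EC1 was 0.78 to 1.04% of its Th1 level in RW and 1.19 to 1.95% in aN1aN2, in EC4 1.98 to 2.90% and 1.56 to 1.87%, and in F 0.376 to 0.588% and 0.443 to 0.919%. Median UMIs per EC1 cell were 4679 to 4968 in RW and 2518 to 3533.5 in aN1aN2, and the part of depth and of these markers in the results was not tested.

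Stt3b rose in endothelium. In EC1 it was at 51.9, 51.6 and 40.4 CPM in RW 1, 2 and 3, 35.9, 42.8 and 41.7 CPM in aJ1aJ2 1, 3 and 4, and 153, 233 and 169 CPM in aN1aN2 1, 2 and 3. Every aN1aN2 sample was above every other sample, a log2 change of 1.96 from RW (SE 0.18, edgeR adjusted p = 1.13e-07) and 2.17 from aJ1aJ2 (SE 0.19, edgeR adjusted p = 7.24e-08). In EC4, a second endothelial label, it was at 88.3, 88.9 and 75.3 CPM in RW, 47.4, 60.3 and 101 CPM in aJ1aJ2 and 195, 365 and 267 CPM in aN1aN2. The aN1aN2 samples were again the highest (log2 change from RW 1.68, SE 0.33, edgeR adjusted p = 0.000407). These values rest on few UMIs: 10, 6 and 8 in RW 1, 2 and 3, and 35, 48 and 28 in aN1aN2 1, 2 and 3. Without aN1aN2 2, which had the highest value, the log2 change was 1.42 (edgeR adjusted p = 0.00604). The label EC3 also held smooth muscle and pericyte markers, which summed to 2617 to 4203 CPM in RW, 999 to 1367 CPM in aJ1aJ2 and 733 to 921 CPM in aN1aN2. These sums moved with the group, and whether its cell composition did was not tested. There Stt3b was at 361, 83.1 and 328 CPM in aN1aN2 1, 2 and 3 and at 110 to 123 CPM in RW. The low aN1aN2 2 set it apart from the other two, and the change was not called (log2 change 1.11, SE 0.36, edgeR adjusted p = 0.0827), though it was without aN1aN2 2. In F and Th3 no change was detected (0.27 and 0.20, edgeR adjusted p = 0.509 and 0.801).

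Rpn1 moved in the opposite direction in the same cells. In EC1 it was at 257, 236 and 203 CPM in RW 1, 2 and 3, 199, 188 and 178 CPM in aJ1aJ2 1, 3 and 4, and 112, 83.1 and 111 CPM in aN1aN2 1, 2 and 3. Its groups were wholly apart (log2 change from RW to aN1aN2 -1.18, SE 0.16, edgeR adjusted p = 1.35e-05). In EC4 it was at 406, 326 and 367 CPM in RW, 214, 281 and 278 CPM in aJ1aJ2 and 77.9, 175 and 190.4 CPM in aN1aN2. The order of the groups was the same as in EC1 (-1.40, SE 0.27, edgeR adjusted p = 0.000364). In F it was at 162, 224 and 195 CPM in RW, 172, 167 and 185 CPM in aJ1aJ2 and 69.4, 73.0 and 73.4 CPM in aN1aN2. RW and aJ1aJ2 overlapped, and aN1aN2 lay far below (-1.44, SE 0.25, edgeR adjusted p = 0.000418). In EC3 no change was detected (-0.07, edgeR adjusted p = 0.936).

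**Figure D5:**
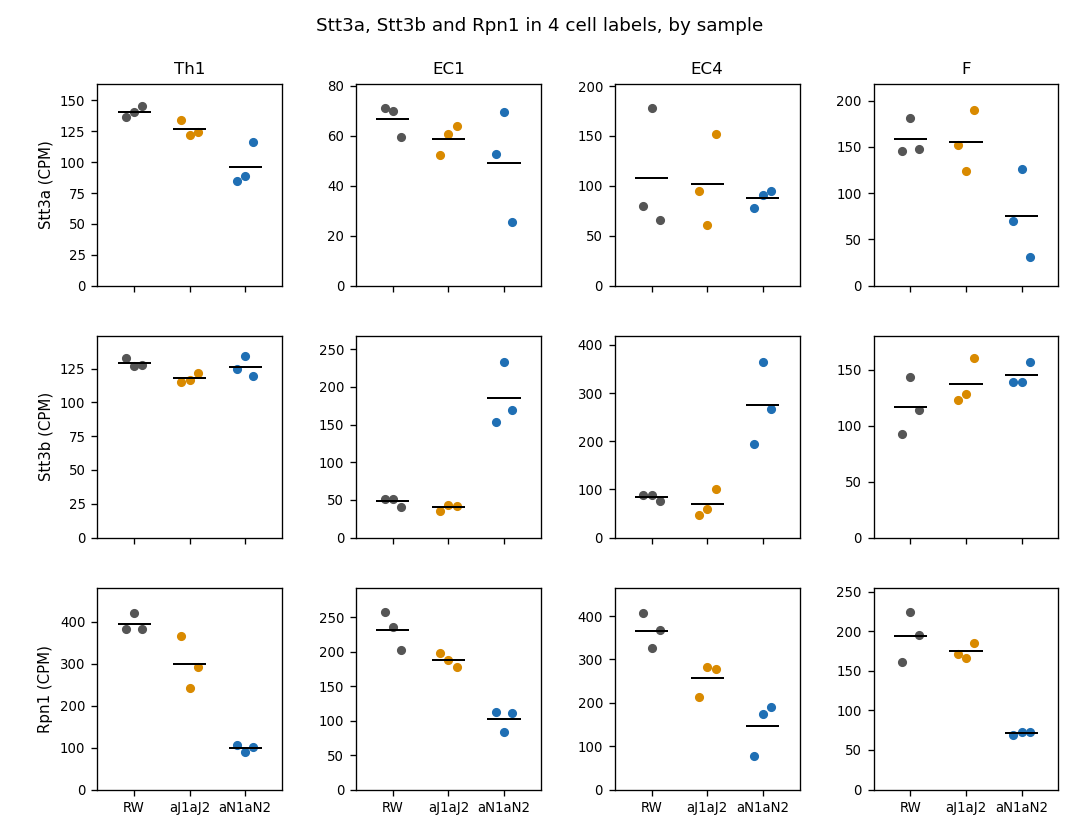
Stt3a, Stt3b and Rpn1 (rows, CPM on vertical axes from 0) in the labels Th1, EC1, EC4 and F (columns), 1 point per sample with the group mean as a line. In EC1 the aN1aN2 samples lie at 153 to 233 CPM for Stt3b, above all RW samples (40.4 to 51.9), and at 83.1 to 112 CPM for Rpn1, below all RW samples (203 to 257).

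In EC1, 11 of 33 genes were called, 9 lower and 2 higher, where 17.8% of all genes were called, 8.93% lower and 8.83% higher. Those lower were Srp19, Sec61b, Sec62, Ssr2, Spcs2, Spcs3, Rpn1, Krtcap2 and Magt1, and Sec63 joined Stt3b as higher (log2 change 0.46, SE 0.16, edgeR adjusted p = 0.0461). The calls for Sec61b (-0.52), Ssr2 (-0.94), Spcs2 (-0.52), Rpn1 and Stt3b held without any 1 library, while the other 6 were each lost without 3 or more of the 6 RW and aN1aN2 libraries, with edgeR adjusted p up to 0.0713 for Sec62 and 0.253 for Sec63. Without aN1aN2 2, 5 genes were called, and without RW 1, RW 2, aN1aN2 1 or aN1aN2 3, 7. The summed share of the 33 genes was 43.1 to 47.5 per 10000 in RW and 38.7 to 40.7 in aN1aN2. In EC4, 3 of 28 genes were called, where 21.1% of all genes were (9.93% lower and 11.2% higher): Rpn1 lower, and Stt3b and Spcs1 higher. Spcs1 (1.03, edgeR adjusted p = 0.0306) was lost without any of RW 1, RW 3, aN1aN2 2 or aN1aN2 3 (edgeR adjusted p up to 0.175).

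In the fibroblast label 13 of 32 genes fell and 0 rose, where 19.8% of all genes were called, 10.6% lower and 9.17% higher. The median change of the 32 was -0.61, and the summed share of the 33 was 55.1 to 62.8 per 10000 in RW and 38.4 to 41.0 in aN1aN2. Ostc was at 288, 327 and 318 CPM in RW 1, 2 and 3, 294, 266 and 331 CPM in aJ1aJ2 1, 3 and 4, and 107, 139 and 126 CPM in aN1aN2 1, 2 and 3. The aN1aN2 samples were far below the rest (-1.33, SE 0.21, edgeR adjusted p = 0.000216). Sec61b (-1.15), Tram1 (-1.16), Ddost (-1.20) and Krtcap2 (-0.87) fell too, and these, Rpn1 and Ostc held without any 1 library. Ssr1, Ssr2, Ssr4, Rpn2, Stt3a, Ost4 and Magt1 were each lost without at least 1 library, with edgeR adjusted p up to 0.225 for Ssr4. The count was 8 without RW 2, without aN1aN2 2 or without aN1aN2 3. Erythroid markers in F summed to 95.9 to 264 CPM in RW and to 778, 37662 and 1102 CPM in aN1aN2 1, 2 and 3, so aN1aN2 2 stood apart, and the 8 genes called without it were Sec61b, Tram1, Ssr2, Rpn1, Ddost, Stt3a, Ostc and Krtcap2. The aN1aN2 sums of F held 33 to 47 cells. With aJ1aJ2 as the reference instead, which shares the aN1aN2 samples, edgeR called 4 of 33 genes in EC1 (13.5% of all genes), 2 of 28 in EC4 (17.2%) and 11 of 32 in F (16%). Those in EC1 were Sec61b (-0.41), Rpn1 (-0.87), Stt3b and Magt1 (-0.70), and those in EC4 were Rpn1 (-0.94) and Stt3b (1.80). In F, Rpn1 (-1.28), Ostc (-1.26) and Sec61b (-1.13) had the lowest values. Leaving out aJ1aJ2 4, aN1aN2 2 or aN1aN2 3 left 6 calls in F, leaving out aN1aN2 1 or aN1aN2 2 left 2 in EC1, and leaving out aJ1aJ2 4 or aN1aN2 1 left 1 in EC4. In Th3, 0 of 30 genes were called against aJ1aJ2 (7 at an unadjusted p under 0.05, 1.44% of all genes called). The same held for EC2, EC3, SM, Eryth1 and Eryth2 (2, 2, 1, 0 and 0 at an unadjusted p under 0.05), where edgeR called 10.5%, 1.27%, 3.66%, 5.59% and 9.32% of all genes.

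The label Th3 had 5 of 30 genes lower, where 5.03% of all genes were called, 2.54% lower and 2.49% higher: Ssr4 (-1.56), Rpn1 (-2.31), Ddost (-1.47), Dad1 (-1.54) and Ostc (-2.21). All 5 were lost without RW 1, RW 2, RW 3 or aN1aN2 3, with edgeR adjusted p up to 0.134 for Dad1. Th3 is no single cell type: its C cell markers summed to 36462 to 66047 CPM in RW and 716 to 10485 CPM in aN1aN2, and its skeletal muscle markers reached 93911 CPM in 1 aN1aN2 sample. Whether its cell composition moved with the group, and the part of these markers in the result, was not tested. In EC2 and EC3, 0 of 21 and 0 of 32 genes were called with edgeR (4 and 2 at an unadjusted p under 0.05), where 15.5% and 5.91% of all genes were. In the erythroid labels Eryth1 and Eryth2, 1 and 2 genes could be tested, and 0 were called by edgeR or had an unadjusted p under 0.05, where 7.69% and 8.6% of all genes were called. Under ligand blockade edgeR called 0 genes in each of 11 other labels, with 0 to 5 per label at an unadjusted p under 0.05. Of all genes it called 1.43% in EC1, 1.91% in EC2, 0.0618% in EC3, 0.903% in EC4, 0.579% in F, 0.358% in Eryth2 and 0% in M, S, T1, Th3 and Eryth1. Without RW 3, Srp14, Sec61b, Dad1 and Ost4 were called in S, from a lone RW sample assumed to vary like the others, and without aJ1aJ2 1, Ssr2 was called in EC1.

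The response to receptor blockade differed between thyrocytes and EC1 endothelium for 16 of 33 genes in a test of the difference itself, with the sample as a block because both labels come from the same pools, where 8.69% of all genes were called. Of these, 15 had a more negative change in Th1 than in EC1 (3.81% of all genes), and the median difference (Th1 minus EC1) over the 33 was -0.63 against 0.04 over all genes. Stt3b differed most (-1.93, SE 0.18, edgeR adjusted p = 2.92e-07): no change was detected in Th1, and it rose in EC1. Ostc (-1.23), Ssr4 (-1.19), Sec11c (-1.13) and Ddost (-1.05) followed, all but Sec11c held without any 1 library, and Sec11c was lost without aN1aN2 1 (edgeR adjusted p = 0.0977). Sec62 was the exception in direction (0.63), which fell in EC1 and was not called in Th1. Against F, 4 genes differed, where 5.43% of all genes did, and without single libraries the count was 0 to 2.

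Of the UMIs of the pair Stt3a and Stt3b, Stt3b took a larger mean share under receptor blockade in the 4 labels examined. It was 47.9% ± 1.30 in RW and 56.9% ± 5.32 in aN1aN2 in Th1, and 41.7% ± 1.06 and 79.4% ± 6.57 in EC1 (SD, n = 3). The corresponding values were 46.4% ± 11.4 and 75.0% ± 4.44 in EC4, and 42.2% ± 3.02 and 67.5% ± 15.4 in F. EC4 held 10, 6 and 8 Stt3b UMIs and 9, 12 and 7 Stt3a UMIs in RW 1, 2 and 3. F held 15 Stt3b and 3 Stt3a UMIs in aN1aN2 3, so the shares of EC4 and F rest on few molecules. In Th1 and F the called member of the pair was Stt3a, lower, and in EC1 and EC4 it was Stt3b, higher. Tusc3 took 22.0% ± 1.05 of the Tusc3 and Magt1 UMIs of Th1 in RW, 22.4% ± 3.59 in aJ1aJ2 and 39.2% ± 3.94 in aN1aN2. In other labels the Tusc3 share in RW and aN1aN2 was 47.6% ± 0.956 and 49.4% ± 7.61 in EC1, 42.7% ± 6.25 and 38.4% ± 7.10 in EC4, and 36.1% ± 5.68 and 57.5% ± 14.96 in F (SD, n = 3). RW 3 held 4 Tusc3 and 5 Magt1 UMIs in EC4, and aN1aN2 3 held 10 and 4 in F. With 3 samples against 3, an exact two-sided permutation test cannot go below p = 0.1, which the Stt3b shifts in all 4 labels and the Tusc3 and Sec11c shifts in Th1 reached against RW (0.24 adjusted over the 36 shares compared). For the Tusc3 share the exact permutation p was 0.7 in EC1, 0.6 in EC4 and 0.2 in F, and all these shares stand as values.

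Other genes of the pathway were read from lists in Th1 under receptor blockade. Of subunits outside the 33, Tmem258, another transferase subunit, fell (-1.45, SE 0.12, edgeR adjusted p = 5.2e-07), as did Srpr, the alpha subunit of the receptor (-0.62, SE 0.13, edgeR adjusted p = 0.00166). These were 2 of 5 tested (40%, where 34.4% of all genes were called), with a median of -0.18 over the 5. Of 23 genes that build the lipid-linked glycan donor, 8 fell and 0 rose, with a median of -0.33. Alg3 (-1.59) and Alg12 (-1.38), mannosyltransferases, Dpagt1 (-1.18), which starts the glycan, and Dpm3 (-0.79), part of dolichol-phosphate mannose synthase, were among them. Of 10 genes that trim or read the new glycan, 7 fell and 0 rose, with a median of -0.73: the lectin chaperones Calr (-3.24) and Canx (-0.91) and the glucosidases Mogs (-1.03) and Ganab (-0.74) were among them.

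Of 16 genes of tail-anchor insertion and the ER membrane complex 4 fell, Emc4 (-0.60) and Emc2 (-0.50) among them, and Emc1 (0.54) and Get4 (0.41) rose. Of 12 genes of COPII vesicles, which carry cargo out of the ER, 4 fell and 0 rose, with Sec13 at -1.06 and Sec23b at -1.0. Of 19 unfolded protein response regulators and chaperones 15 fell and 1 rose, with a median of -2.42. The chaperone Hspa5 (BiP) was at -3.02 and Ern1, the sensor IRE1, rose (1.05, SE 0.15, edgeR adjusted p = 8.2e-05). Against 34.4% of all genes called, the percentages called were 40 for the other subunits, 34.8 for the donor list, 70 for trimming, 37.5 for insertion, 33.3 for COPII and 84.2 for the unfolded protein response. Under ligand blockade edgeR called 4 genes of the last list, all lower: Derl3 (-1.13), Sdf2l1 (-1.0), Pdia4 (-0.75) and Hsp90b1 (-0.65), and 0 genes of the others, where 0.612% of all genes were called. These calls depended on single libraries: without aJ1aJ2 3 only 1 of all genes was called, so at most 1 of the 4 was kept. Over all genes 17 were called without aJ1aJ2 4 and 18 without RW 2.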

How the data were processed

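The deposited data are raw UMI counts of each gene in each cell, in 1 table by the authors, beside their annotation of every cell with its sample and label. Libraries were 10x Genomics 3′ single-cell libraries, 1 sequencing lane each, per the labels' protocols. Reads were processed with Cell Ranger against GRCm38, per the submitters' processing notes, and no version, gene annotation or clustering method is given in the sources used here. The lowest cell total was 500 UMIs. In 2619 annotation lines a comma in the treatment name had shifted the columns, which was corrected on reading. Symbols came from a reference list that matched 52403 of 52636 gene identifiers. The table held 0 columns of another series.

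The replicate was the sample, a pool of 6 mice. Counts were summed per sample and label, without further cell or doublet filters. The sums were tested with edgeR 4.0.16 in R 4.3.3: filterByExpr, TMM scaling, all 9 samples in 1 fit with 3 group means, quasi-likelihood test, two-sided, Benjamini-Hochberg adjustment over all genes tested, threshold 0.05. A label entered a comparison only if both groups had 2 or more samples with 20 cells of it. The difference between labels was an interaction term, with the sample as a block, since the sums of both labels come from the same pools. CPM values of genes in the comparisons, and marker sums in Th1, are scaled to TMM-adjusted totals. Marker sums in the other labels are scaled to the plain UMI total of each sum. DESeq2 1.42.0, other scaling, no count filter, fewer cells, Th1 cells of 5000 to 15000 UMIs, series as a term, and each library left out were alternatives. The test was also run on simulated counts, whose outcome is not reported here. Near-identical 3′ ends were found with BLAST+ 2.17.0, plots were drawn with matplotlib 3.10.9 and motifs were searched in Python 3.11.15.

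Per-sample Th1 values were given by rule for the 2 largest called changes of each complex, or the largest of any member where none was called, as for Srprb. They were also given for members called under ligand blockade or in another label and for the alternative subunit pairs, and other members are summarised. The members and lists were chosen with earlier results of these data known.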

Additional observations from a re-analysis of the deposited data

Results flagged for a closer look

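The change under receptor blockade differed between cell labels for 16 genes between Th1 and EC1 and for 4 between Th1 and F, each by an interaction term in edgeR over 3 samples per group, each giving sums of both labels and entered as a block (Benjamini-Hochberg adjusted p under 0.05), and all values here are differences of log2 changes, Th1 minus the other label. Against EC1 the oligosaccharyltransferase genes were Stt3b (-1.93), Ostc (-1.23), Ddost (-1.05), Krtcap2 (-0.88), Dad1 (-0.77), Rpn1 (-0.75) and Rpn2 (-0.64). Those of signal peptidase were Sec11c (-1.13), Spcs2 (-0.83) and Spcs1 (-0.63). TRAP gave Ssr4 (-1.19), and the signal recognition particle gave Srp9 (-0.77). Among channel genes Tram1 (-0.89), Sec61g (-0.79) and Sec63 (-0.67) had a more negative change in Th1, where Sec61g and Sec63 were not called against RW, and Sec62 (0.63) had a more negative change in EC1. The calls for Sec63, Spcs1, Sec11c, Rpn1 and Rpn2 were lost without at least 1 library, aN1aN2 1 in every case, with adjusted p up to 0.235 for Spcs1, and the other 11 held.

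Against F the genes were Sec61g (-1.02), Spcs2 (-1.0), Ssr4 (-0.87) and Dad1 (-0.76). Each was lost without aN1aN2 1 and without RW 2, and Sec61g and Ssr4 were lost without any of the 6 libraries, with adjusted p up to 0.347 and 0.322. Sec61g has near-identical copies, and its counts are uncertain. Sums of F came from 26 to 51 cells per RW or aN1aN2 sample. The aN1aN2 samples had fewer UMIs per cell than RW in Th1, EC1 and F alike, and the part of depth in these differences was not tested.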

How the results depend on the processing

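In Th1, the counts of genes lower under receptor blockade stayed at 22 to 25 against RW (24) and 16 to 22 against aJ1aJ2 (22) under the alternatives tried, libraries left out included. The labels give RW and aN1aN2 samples the numbers 1 and 2, but same-numbered samples did not deviate together (correlation -0.0443 over 10342 genes), and 24 genes were called with the numbers as a replicate block as well as without it in the same 4 samples. The call depended on the choice for ligand blockade against RW in Th1: 0 genes, but 5 with no filter on low counts (Sec61g, Ssr4, Spcs3, Rpn1 and Ddost), 1 with DESeq2, 2 among cells of 5000 to 15000 UMIs, 3 with series as a term, 8 within series B and 0 to 8 without single libraries. In the other labels it was 0, and 0 to 4 without single libraries.

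Receptor blockade against RW gave 32 calls in the other labels, 14 where sums of at least 50 cells were required, which leaves out F, EC2 and EC3 and drops aN1aN2 3 from Th3, where 0 genes were then called, and 17 to 25 without single libraries. Against aJ1aJ2 it gave 17 calls, 26 with no filter, 6 with at least 50 cells and 10 to 16 without single libraries. Genes responding differently in Th1 than in F numbered 4, and 0 to 2 without single libraries.

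Over all genes in Th1, aJ1aJ2 against RW gave 65 calls, but 424 with no filter, 103 with DESeq2, 26 with only these groups, 11 with 62 cells per sample, 30 with Th3 added, 135 with series as a term, 649 within series B and 1 to 530 without single libraries. aN1aN2 against RW gave 3653, but 1481 among cells of 5000 to 15000 UMIs. Against aJ1aJ2 it gave 2374, but 1483 with 62 cells per sample, 963 among cells of 5000 to 15000 UMIs and 1548 without aN1aN2 2. The cause was not tested. The 3 pools per group, few cells in F and Th3, and receptor blockade confined to series C limit all comparisons.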
